A study of Homo sapiens with 6 samples.

Results

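The interleukin-1 (IL-1) family was followed through 9 genes chosen by name: the agonists IL1A, IL1B, IL18, IL33, IL36B and IL36G, the receptor antagonists IL1RN and IL36RN, and IL37, a member described as dampening inflammation. They are 9 of the 60591 genes in the count table. 7 of the 9 passed the filter on low counts, among 21825 genes tested in all, while IL33 and IL36B did not pass. The measurements were RNA-seq read counts from KYSE150, a line of human oesophageal squamous cell carcinoma cells. In 3 libraries the cells had received TPA, a phorbol ester that activates protein kinase C, at 10 ng/ml for 24 h after a night without serum. The other 3 libraries are labelled DMSO, the solvent, and the labels give them no dose or time. All 6 libraries came from this 1 cell line. The labels do not say whether libraries of a group were separate cultures. The p-values therefore measure only how far these libraries spread, which may be technical.

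IL-1 family cytokines are alarm signals of barrier tissues such as the oesophageal lining. IL-1α and IL-1β bind a receptor chain that then recruits the accessory chain IL1RAP and signals through MYD88 and the IRAK kinases, whereas the product of IL1RN occupies the same receptor without recruiting that chain. The IL-36 cytokines and the product of IL36RN form a parallel agonist and antagonist set at the IL-36 receptor, and precursors such as those of IL-1β and IL-18 are cut by caspase-1 before they signal.

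Most of the genes lie together on chromosome 2. In GENCODE release 29 on GRCh38, IL1A spans chr2:112773915-112784590 on the minus strand and IL1RN spans chr2:113107214-113134016 on the plus strand. The 360.1 kb between the outer ends of those genes hold IL1A, IL1B, IL37, IL36G, IL36B, IL36RN and IL1RN together with the relatives IL36A and IL1F10. IL18 lies at chr11:112143251-112164117 on the minus strand, and IL33 at chr9:6215786-6257983 on the plus strand. The 250 bases upstream of RefSeq transcript starts (GRCh38.p14) are printed for the agonist and antagonist genes of chromosome 2 that carry the results below, each 5′ to 3′ on the strand of its gene, so that their start regions can be set side by side. Of the 9 genes, 7 were matched in that table, with 13 starts. Capitals mark matches, on either strand, to the AP-1 motif TGANTCA or the C/EBP motif TTNNGCAA.
IL1A promoter on the minus strand, chr2:112784494-112784743: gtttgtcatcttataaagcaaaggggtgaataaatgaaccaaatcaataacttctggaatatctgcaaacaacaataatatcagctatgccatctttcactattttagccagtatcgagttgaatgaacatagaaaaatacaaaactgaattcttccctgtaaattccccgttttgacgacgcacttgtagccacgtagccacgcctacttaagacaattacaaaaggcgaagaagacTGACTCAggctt
IL1B promoter on the minus strand, chr2:112836780-112837029: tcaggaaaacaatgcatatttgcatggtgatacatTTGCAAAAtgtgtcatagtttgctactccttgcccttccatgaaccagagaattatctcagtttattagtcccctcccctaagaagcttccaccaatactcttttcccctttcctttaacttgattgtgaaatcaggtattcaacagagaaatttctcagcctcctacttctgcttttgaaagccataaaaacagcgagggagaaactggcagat
IL36G promoter on the plus strand, chr2:112977756-112978005: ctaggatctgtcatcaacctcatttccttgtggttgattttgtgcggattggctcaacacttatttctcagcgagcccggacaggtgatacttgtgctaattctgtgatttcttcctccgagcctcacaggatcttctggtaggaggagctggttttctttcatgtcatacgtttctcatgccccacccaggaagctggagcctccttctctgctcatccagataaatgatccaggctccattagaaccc
IL1RN promoter on the plus strand, chr2:113117721-113117970: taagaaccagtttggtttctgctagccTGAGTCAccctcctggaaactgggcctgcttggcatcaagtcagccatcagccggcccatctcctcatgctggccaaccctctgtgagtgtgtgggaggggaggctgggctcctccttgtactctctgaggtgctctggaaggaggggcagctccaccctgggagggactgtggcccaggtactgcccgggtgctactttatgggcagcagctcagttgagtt
IL36RN promoter on the plus strand, chr2:113058388-113058637: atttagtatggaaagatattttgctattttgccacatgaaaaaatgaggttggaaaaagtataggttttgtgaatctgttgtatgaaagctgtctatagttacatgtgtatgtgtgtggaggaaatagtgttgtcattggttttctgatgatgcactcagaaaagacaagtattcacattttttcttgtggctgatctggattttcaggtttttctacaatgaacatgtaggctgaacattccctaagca

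The printed IL1A window held an AP-1 match at bases -12 to -6 from the start, and the printed IL1RN window held an AP-1 match at bases -223 to -217. The window of another IL1A start, not printed, held the same IL1A site at bases -105 to -99 from that start. It also held a further AP-1 match at bases -55 to -49. Over all 35116 windows of this length, 6.6% held this motif. The IL1B window held a C/EBP match at bases -215 to -208, as did 9.1% of all windows, and 1 window of IL37 held another. Within a window, no match overlapped another. The NF-κB consensus decamer had 0 matches in the 13 windows of the family, against 5.2% of all windows. These are letter matches in short windows and give no measure of binding. In the annotated 3′ untranslated regions, ATTTA, a pentamer known from unstable cytokine messengers, occurred 5 times in the 1152 bases of IL1A and 6 times in the 610 bases of IL1B. IL36G and IL36B held 1 copy each, IL33 held 4 and IL18 held 0. Of the antagonists, IL1RN held 0 in 1145 bases and IL36RN held 3 in 2071 bases, which is 1.45 per kb, against 1.62 per kb in IL36G. Of 19133 coding genes, 67.6% held at least 1 copy.

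The libraries held 28915283, 33458280 and 33965547 counts with TPA and 28219863, 30207144 and 27702329 counts with DMSO. The libraries numbered 1 stood apart in both groups. TPA library 1 had a Pearson correlation of log2 CPM (counts scaled to library size) over the 21825 tested genes of 0.97 with DMSO library 1 and of 0.93 and 0.94 with TPA libraries 2 and 3, which had 0.99 with each other. Values without both libraries numbered 1 are therefore given beside the results below. That fit called 32.2% of all genes higher and 33.3% lower. The squamous label was checked on 9 markers, all of them detected, with a summed level of 1306 to 2609 CPM in TPA libraries and 1692 to 3441 CPM in DMSO libraries. Most of those sums was CDH1, SFN and KRT5, with means of 1037, 389 and 355.3 CPM with TPA and 661.6, 299.3 and 1315 CPM with DMSO. KRT5 ran from 66.7 CPM in TPA library 1 to 1780 CPM in DMSO library 3. Means of KRT14 were 26.2 CPM with TPA and 14.7 CPM with DMSO, and those of KRT6A were 15.1 and 1.16 CPM. Of 12 leukocyte markers, TYROBP and MS4A1 were at 0 in all libraries and 10 averaged under 1 CPM, with sums of 13.1 to 13.9 CPM in TPA libraries and 11.0 to 19.5 CPM in DMSO libraries. Most of those sums was CSF1R, with means of 10.1 CPM with TPA and 10.6 CPM with DMSO, and CD3E had 1.17 and 2.96 CPM. The 7 fibroblast markers summed to 3.05 to 10.5 CPM in TPA libraries and 5.43 to 12.3 CPM in DMSO libraries. DCN was at 0, and nearly all of the sum was COL1A1, with means of 7.54 CPM with TPA and 9.35 CPM with DMSO. The 5 endothelial markers summed to 1.27 to 3.03 CPM in TPA libraries and 2.84 to 3.69 CPM in DMSO libraries. The part of these levels in the results was not tested.

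The antagonists and 2 of the agonists were higher with TPA. With edgeR's quasi-likelihood test and Benjamini-Hochberg adjustment over all tested genes, IL1RN, IL36RN, IL1B and IL36G passed an adjusted p of 0.05, all of them higher in TPA libraries. That is 4 of 9 genes, where 0.861% of all tested genes were called higher and 0.394% lower, 1.26% in either direction. IL36G was kept for testing through its TPA libraries alone, so its call is a description and not support for the count; the other 3 reached the count limit of the filter in all 6 libraries. In the same test 0 of the 9 were called lower, and DESeq2 and limma-voom also called 0 lower, where they called 4.19% and 0.596% of all genes lower. At an unadjusted p under 0.05 there were 5 of the 7 tested, IL1A being the fifth, where 22.1% of all genes passed. IL1A was not called in this fit but was in others, among them the fit with the library number as a block, IL18 and IL37 were not called, and IL33 and IL36B had too few counts to be tested. In bulk RNA, a change in the number of expressing cells and a change in RNA per cell cannot be told apart.

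**Figure D1:**
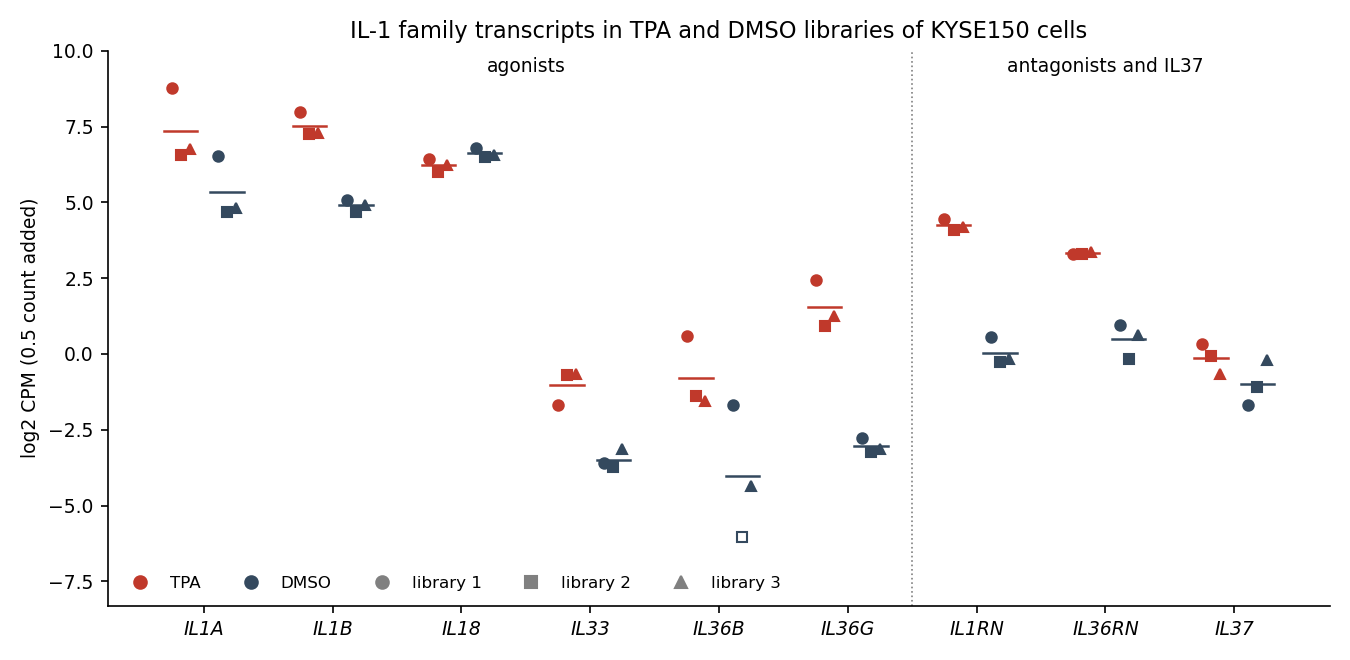
Levels of the 9 genes in each library, as log2 CPM with 0.5 count added; circles, squares and triangles are libraries 1, 2 and 3, bars are group means, and the open square is a library with 0 counts. TPA libraries lie above DMSO libraries without overlap for IL1B, IL36G, IL1RN, IL36RN and IL33, and by a narrow step for IL1A and IL36B. IL18 runs the other way and IL37 overlaps. Among all tested genes, 14.3% were without overlap and higher with TPA.

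IL1B encodes IL-1β, the agonist most closely tied to inflammasome activation. It had 250.5, 152 and 157.8 CPM in TPA libraries 1, 2 and 3, against 34.1, 25.9 and 30.4 CPM in DMSO libraries 1, 2 and 3. The lowest TPA library was thus several times above the highest DMSO library. The means were 186.8 ± 55.3 CPM with TPA and 30.1 ± 4.09 CPM with DMSO (SD, n = 3 each). The log2 fold change was 2.63 ± 0.28 (SE), with an adjusted p of 0.0250 in edgeR's quasi-likelihood test. Within library numbers 1, 2 and 3 the TPA over DMSO fold was 7.35, 5.86 and 5.19.

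IL1A encodes IL-1α, which is active as a precursor and is released from damaged epithelial cells. It had 437.4, 94.8 and 107.7 CPM in TPA libraries 1, 2 and 3, against 91.9, 25.8 and 27.8 CPM in DMSO libraries 1, 2 and 3. Both libraries numbered 1 were high for their group, at 4.32 times the mean of the other TPA libraries and 3.43 times that of the other DMSO libraries, so the groups were separated only by the narrow step between TPA library 2 and DMSO library 1. The log2 fold change was 2.14 ± 0.75, and the adjusted p of 0.158 in edgeR did not pass. Within library numbers the folds were 4.76, 3.68 and 3.87, close to each other. With the library number as a block, the log2 fold change was 2.03 ± 0.24 with an adjusted p of 0.00101 in edgeR, and without both libraries numbered 1 it was 2.07 with an adjusted p of 1.0e-10. DESeq2 (2.21, adjusted p 0.0161) and edgeR after a GC correction without a block (2.47, adjusted p 0.0380) called it as well. Over all genes, the block called 4.58% higher, DESeq2 7.8% and the GC correction 3.41%. The fit without both libraries numbered 1 called 32.2% of all genes higher and 33.3% lower. The log2 fold change was 1.17 without TPA library 1 and 3.00 without DMSO library 1, neither of which passed.

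IL36G encodes IL-36γ, an epithelial agonist of the IL-36 receptor. It had 148, 56 and 73 counts in TPA libraries 1, 2 and 3, against 4, 3 and 3 counts in DMSO libraries 1, 2 and 3. Those are 5.37, 1.88 and 2.38 CPM with TPA and 0.132, 0.0915 and 0.0977 CPM with DMSO, where 3 counts were worth 0.0915 to 0.109 CPM in the 6 libraries. The DMSO level was therefore at the edge of detection, and the gene passed the filter on low counts through its TPA libraries alone, where it had to be high. Its log2 fold change of 4.86 ± 0.57 (adjusted p 0.0250 in edgeR) is therefore a description. In the edgeR fit of all genes without the filter, which called 1.06% of genes higher, it was 4.93 with an adjusted p of 0.000496. The folds within library numbers were 36.3, 17.8 and 21.0, and each rests on 3 or 4 DMSO counts.

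IL36B and IL33 were near the floor. IL36B, which encodes IL-36β, had 41, 11 and 10 counts in TPA libraries 1, 2 and 3 and 9, 0 and 1 counts in DMSO libraries 1, 2 and 3. TPA library 3 and DMSO library 1 were nearly alike. Over the group the sums were 62 counts with TPA and 10 counts with DMSO, a depth-scaled ratio of 6.61 with an exact 95% interval of 3.37 to 14.5, which covers counting error only. IL33, a nuclear alarmin of barrier cells, had 8, 18 and 19 counts with TPA and 2, 2 and 3 counts with DMSO. All TPA libraries were above all DMSO libraries, and the ratio of sums, 45 to 7 counts, was 6.86 with an interval of 3.07 to 18.0. When edgeR was run on all genes without the filter, the log2 fold change was 2.80 for IL33 (adjusted p 0.0458) and 2.76 for IL36B (adjusted p 0.139). IL33 passed the filter in some fits with fewer libraries, through its TPA libraries alone, so those values are descriptions. Without both libraries numbered 1 its log2 fold change was 3.05 (adjusted p 0.000218 in edgeR), in a fit that called 32.2% of all genes higher. IL33 missed the threshold without any 1 of the DMSO libraries, with adjusted p of 0.127 to 0.354 in edgeR.

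IL18, whose product drives interferon-γ in lymphocytes, was somewhat lower in TPA libraries but did not pass the test. It had 86.6, 64.5 and 74.8 CPM in TPA libraries 1, 2 and 3, against 110.0, 91.0 and 93.9 CPM in DMSO libraries 1, 2 and 3. The groups did not overlap, and the folds within library numbers were 0.787, 0.709 and 0.796. Among all tested genes 15.2% were without overlap and lower with TPA, and 14.3% without overlap and higher. The log2 fold change of IL18 was -0.38 ± 0.21 with an adjusted p of 0.334 in edgeR. Its direction depended on a correction for GC content: with the trend over GC removed it was 0.18 with the library number as a block and 0.23 without it, and neither was called. The longest annotated transcript of IL18 has a GC content of 39.2%, where 12% of tested genes had less. Without TPA library 1 the log2 fold change was -0.39 with an adjusted p of 0.0466, and without both libraries numbered 1 it was -0.25 with an adjusted p of 0.0238. The fit without TPA library 1 called 27.8% of all genes lower and 24.6% higher. The fit without both libraries numbered 1 called 33.3% lower and 32.2% higher.

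IL1RN encodes the IL-1 receptor antagonist and had the lowest adjusted p of the 9 genes. It had 21.8, 17.0 and 18.3 CPM in TPA libraries 1, 2 and 3, against 1.45, 0.824 and 0.880 CPM in DMSO libraries 1, 2 and 3. The TPA libraries were close together and far above every DMSO library. The means were 19.0 ± 2.47 CPM with TPA and 1.05 ± 0.346 CPM with DMSO (SD, n = 3 each). The fitted log2 fold change was 4.17 ± 0.32 with an adjusted p of 0.0143 in edgeR's quasi-likelihood test. The folds within library numbers were 14.9, 20.3 and 20.4. The gene makes a secreted form and intracellular forms from different starts, which counts per gene do not separate.

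IL36RN encodes the IL-36 receptor antagonist, whose loss in humans leads to pustular skin inflammation. It had 9.79, 9.81 and 10.3 CPM in TPA libraries 1, 2 and 3, against 1.94, 0.885 and 1.53 CPM in DMSO libraries 1, 2 and 3. The 3 TPA libraries were nearly equal, and each was several times above the highest DMSO library. Its log2 fold change was 2.78 ± 0.34 with an adjusted p of 0.0250 in edgeR. IL37 had 1.23, 0.941 and 0.620 CPM with TPA and 0.296, 0.458 and 0.847 CPM with DMSO. Its groups overlapped, the folds within library numbers were 3.999, 2.03 and 0.737, and the log2 fold change of 0.80 ± 0.49 did not pass (adjusted p 0.378 in edgeR). Without both libraries numbered 1 it was 0.42 (adjusted p 0.375). IL37 reached the count limit of the filter in 3 TPA libraries and 2 DMSO libraries.

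**Figure D2:**
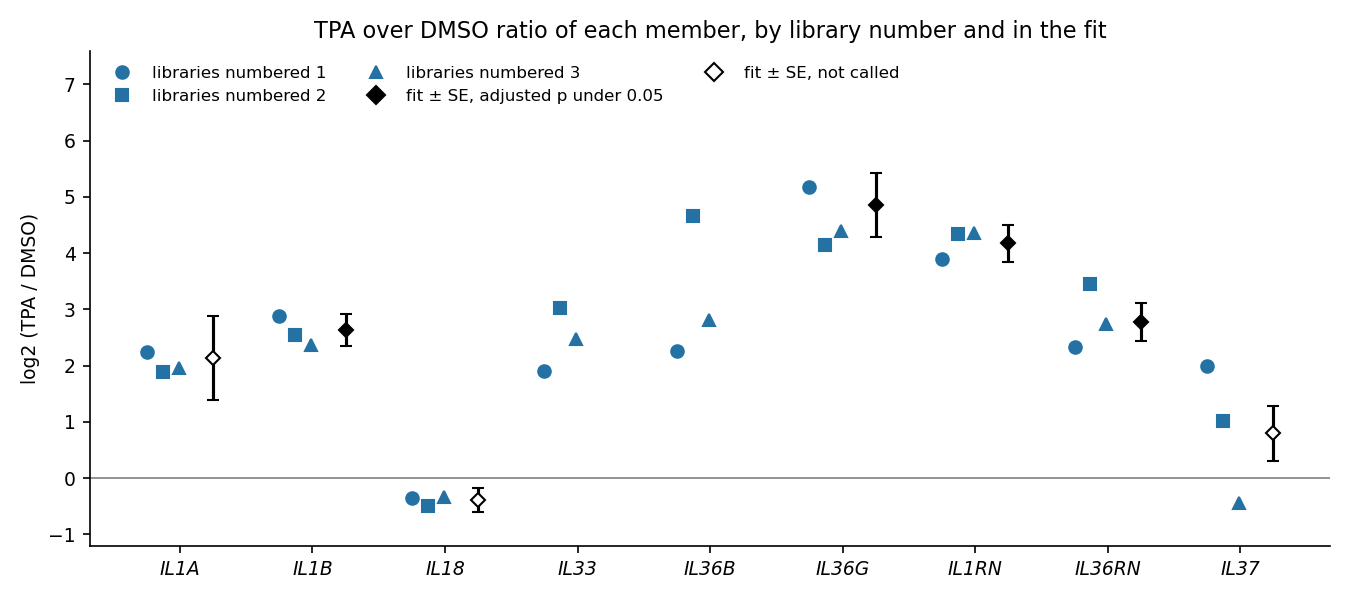
Log2 ratio of TPA over DMSO for each gene, within library numbers 1, 2 and 3 (blue) and as fitted by edgeR with its standard error (black, filled where the adjusted p was under 0.05; no fitted value for IL33 and IL36B). All 3 ratios are above 0 for every gene but IL18, where all 3 are below, and IL37, where the ratio of number 3 is below.

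The calls depended on single libraries more than the fold changes did. Without TPA library 3, DMSO library 2 or DMSO library 3, edgeR called 0 of the 9 genes, and 5, 5 and 6 of them had an unadjusted p under 0.05. Over all genes it then called 2, 0 and 0, with 2840, 2612 and 2745 at an unadjusted p under 0.05. IL36RN was also lost without TPA library 2 (adjusted p 0.0790) and IL36G without DMSO library 1 (adjusted p 0.0541). Across the fits that left out 1 library, the log2 fold change ran from 2.47 to 2.77 for IL1B, 4.38 to 5.14 for IL36G, 4.04 to 4.48 for IL1RN and 2.53 to 3.05 for IL36RN. Without both libraries numbered 1 it was 2.61 for IL1B, 4.59 for IL36G, 4.52 for IL1RN and 3.21 for IL36RN, and all 4 passed in a fit that called 32.2% of all genes higher.

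**Figure D3:**
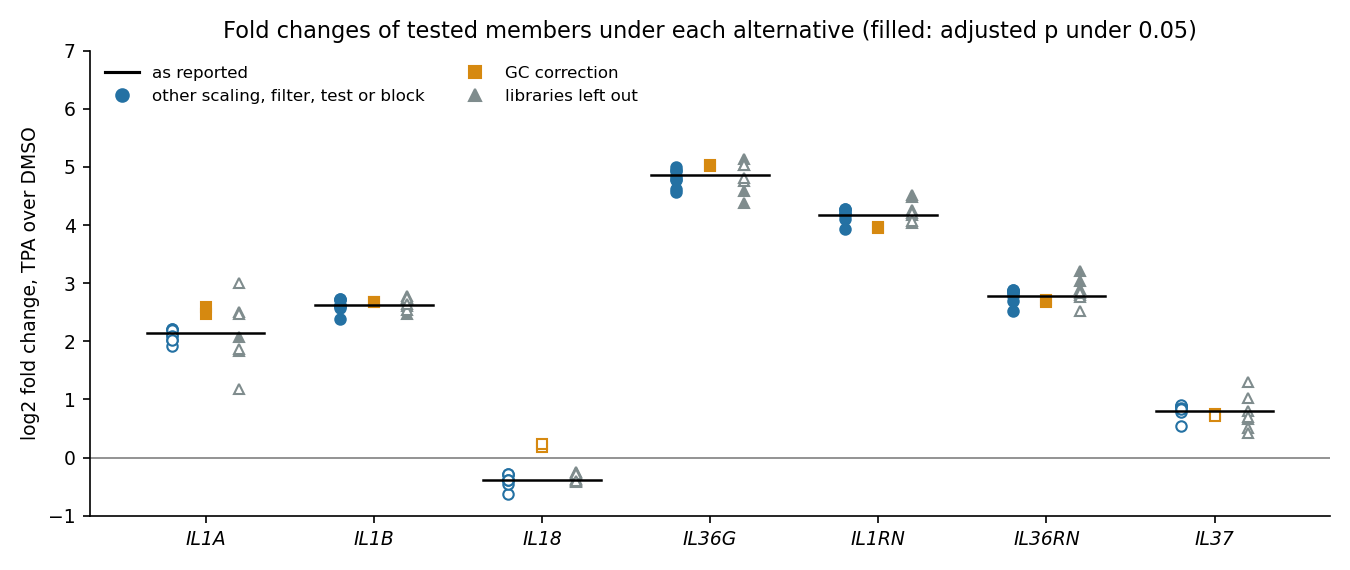
Log2 fold change, TPA over DMSO, of the 7 tested genes as reported (black bar) and under each alternative (symbols; filled where the adjusted p was under 0.05). The values of IL1RN, IL36RN, IL36G and IL1B stay well above 0 in every alternative drawn, IL18 crosses 0 under the GC correction, and IL1A spreads from 1.17 to 3.00 as libraries are left out.

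Agonists were compared with the antagonist of their own receptor inside each library, where the ratio of counts needs no scaling between libraries. The IL1B to IL1RN ratio was 11.5, 8.95 and 8.63 in TPA libraries 1, 2 and 3, against 23.5, 31.4 and 34.6 in DMSO libraries 1, 2 and 3. IL1B counts exceeded IL1RN counts in every library, and by less in each TPA library than in any DMSO library. The mean log2 ratio was 3.26 ± 0.23 with TPA and 4.86 ± 0.28 with DMSO (SD, n = 3 each), a difference of -1.59. The IL1A to IL1RN ratio was 20.1, 5.59 and 5.89 with TPA, against 63.4, 31.3 and 31.6 with DMSO. Its mean log2 ratio was 3.12 ± 1.05 with TPA and 5.29 ± 0.59 with DMSO, a difference of -2.17. Both differences gave an exact two-sided permutation p of 0.1 (0.1 after adjustment over the 2 ratios), the smallest that the 20 splits of 3 against 3 libraries allow, so this design could not reach 0.05. Both ratios were lower with TPA within all 3 library numbers, by -1.02, -1.79 and -1.98 for IL1B and by -1.64, -2.46 and -2.40 for IL1A on the log2 scale. Without both libraries numbered 1, the differences were -1.88 for IL1B and -2.43 for IL1A.

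In the IL-36 set, the IL36G to IL36RN ratio was 0.548, 0.192 and 0.232 in TPA libraries 1, 2 and 3, against 0.0678, 0.103 and 0.0638 in DMSO libraries 1, 2 and 3. The antagonist had more counts than the agonist in every library, and the ratio was higher in each TPA library than in any DMSO library. The log2 difference of 1.74 was not tested, since IL36G had under 10 counts in the DMSO libraries. The IL36B to IL36RN ratio was 0.152, 0.0377 and 0.0318 with TPA and 0.153, 0 and 0.0213 with DMSO, and its groups overlapped. Whether the IL-1 and IL-36 ratios differ in their response was not tested. IL1RL2, the IL-36 receptor chain, had 1, 0 and 0 counts in TPA libraries 1, 2 and 3 and 0 counts in each DMSO library. The IL-36 ratios thus describe RNA of agonist and antagonist in cells where RNA of that chain was barely counted.

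**Figure D4:**
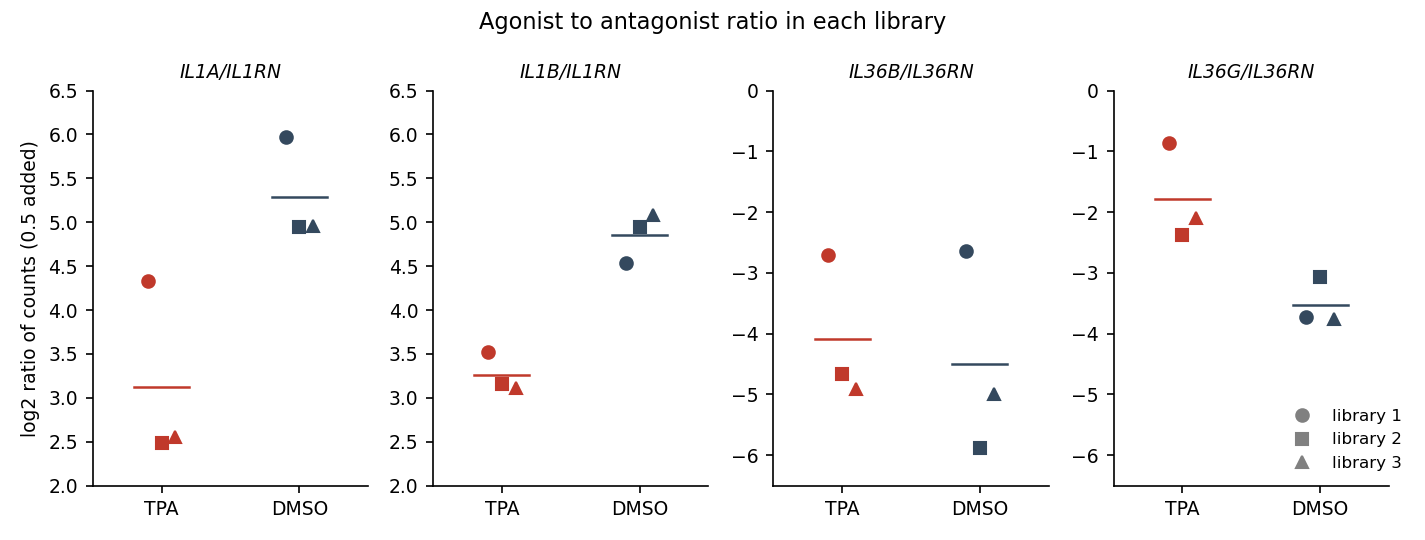
Log2 ratio of agonist to antagonist counts in each library, with 0.5 added to each count; TPA at left and DMSO at right in each panel, bars are group means. The IL1A and IL1B ratios to IL1RN are lower in TPA libraries, the IL36G to IL36RN ratio is higher, and the IL36B to IL36RN ratio overlaps.

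Levels were set in order per kilobase of exon. In TPA libraries IL1A had 100.4 ± 91.4 CPM per kb and IL1B 60.3 ± 17.9, whose ranges overlapped, followed without overlap by IL18 at 28.7 ± 4.20, IL1RN at 5.84 ± 0.758 and IL36RN at 3.02 ± 0.0826. The ranges of IL36RN and IL36G, at 2.33 ± 1.37 CPM per kb, overlapped, as did those of each further neighbour down through IL37, IL36B and IL33. In DMSO libraries IL18 led at 37.4 ± 3.90 CPM per kb, overlapping IL1A at 22.8 ± 17.7, and IL1B followed at 9.73 ± 1.32. IL37, IL36RN and IL1RN came next at 0.636, 0.440 and 0.323 CPM per kb with overlapping ranges, and IL36G, IL36B and IL33 were lowest, at 0.0775, 0.0587 and 0.0230. IL1RN thus stood above IL37 and IL36RN with TPA and below their means with DMSO.

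Along the chromosome 2 cluster, called and uncalled genes lay among each other. IL1B, IL36G, IL36RN and IL1RN were called higher, with IL37 between IL1B and IL36G not called. Of the other 6 annotated loci inside the span, 0 were protein coding, and the most abundant had 414 counts over all libraries. The flanking genes were CKAP2L, beyond IL1A, with a log2 fold change of -0.95 ± 0.38 (adjusted p 0.199 in edgeR), and PSD4, beyond IL1RN, with 1.22 ± 0.23 (adjusted p 0.0581 in edgeR). IL36G overlaps the pseudogene HMGN2P23 and IL18 overlaps AP002884.3 on the opposite strand, in both cases with 0 shared exon bases.

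**Figure D5:**
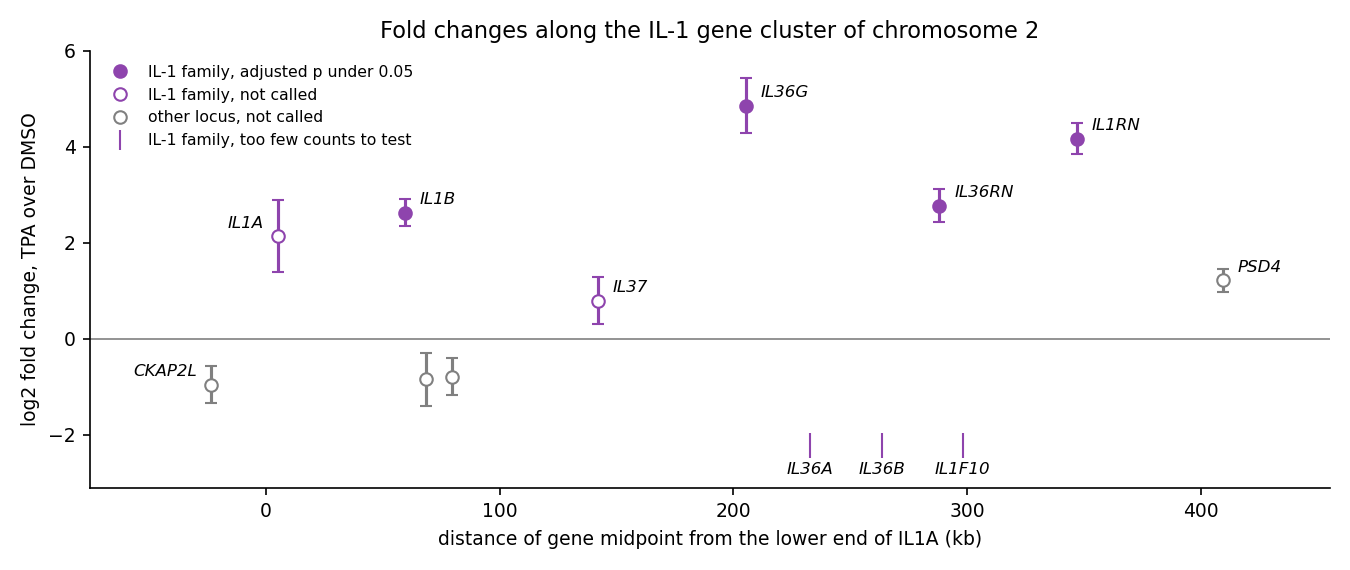
Log2 fold change, TPA over DMSO, with its standard error, for genes of the chromosome 2 cluster and its flanks, by distance of the gene midpoint from the lower end of IL1A in kb; filled points had an adjusted p under 0.05 and ticks mark relatives with too few counts to test. The 4 filled points are IL1B, IL36G, IL36RN and IL1RN, and both named flanking genes are open points.

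Receptors moved in both directions. Of 11 receptor chains and decoys, 7 were tested, 1 was called higher, 1 lower and 5 were not called, where 0.861% of all tested genes were called higher and 0.394% lower. Their median log2 fold change was 0.95, against -0.11 over all tested genes. IL1R2 and IL1RL1 were kept for testing through their TPA libraries alone, so their tests are descriptions and the median includes them. IL1R2, the decoy receptor that binds IL-1 without signalling, had 51.6, 50.1 and 51.2 CPM in TPA libraries 1, 2 and 3, against 0.625, 0.305 and 0 CPM in DMSO libraries 1, 2 and 3. The groups were far apart, and the log2 fold change was 7.34 ± 0.83 with an adjusted p of 0.0250 in edgeR (8.32 without DMSO library 1). IL1RAP, the accessory chain shared by the IL-1, IL-33 and IL-36 receptors, had 33.4, 17.4 and 19.99 CPM with TPA, against 76.3, 102.1 and 85.3 CPM with DMSO. Every TPA library was below every DMSO library, and the log2 fold change was -1.90 ± 0.31 (adjusted p 0.0412 in edgeR).

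For IL1RL1, the IL-33 receptor, the log2 fold change was 3.70 ± 0.91 (adjusted p 0.0789 in edgeR). With the library number as a block, IL1RL1 (3.45, adjusted p 0.00110) and the signalling receptor IL1R1 (1.78, adjusted p 0.0170) were called as well in edgeR. That made 3 of the 7 receptors higher and 1 lower, where the block called 4.58% of all genes higher and 6.52% lower. IL1R2 and IL1RL1 are among the 3, so that count is a description. DESeq2 called 4 higher and 1 lower, against 7.8% and 4.19% of all genes. IL1RL1 depended on the libraries numbered 1, at 2.44 without TPA library 1, 4.43 without DMSO library 1 and 3.20 without both. IL1R2 was lost without TPA library 3, DMSO library 2 or DMSO library 3, with adjusted p of 0.0559, 0.234 and 0.0556 in edgeR. IL1RAP stayed called without TPA library 1 and was lost without any other 1 library, with adjusted p of 0.0698 to 0.288 in edgeR.

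Most of the intracellular pathway was not called, and neither were most of all tested genes, of which 0.861% were called higher and 0.394% lower. Of 13 adaptors and kinases, 11 were tested, 1 was called higher, 0 lower and 10 were not called, with a median log2 fold change of 0.02; 4 had an unadjusted p under 0.05, against 22.1% of all genes. DESeq2 called 4 higher and 0 lower, against 7.8% and 4.19% of all genes. The called gene was IRAK2, a kinase that sustains signalling downstream of MYD88, with 92.7, 77.7 and 77.9 CPM in TPA libraries 1, 2 and 3, against 32.1, 17.6 and 19.7 CPM in DMSO libraries 1, 2 and 3. The groups were well separated, and the log2 fold change was 1.84 ± 0.29 (adjusted p 0.0410 in edgeR). That call was lost without TPA library 2 or 3 or DMSO library 2 or 3, with adjusted p of 0.110 to 0.288 in edgeR. MYD88, the adaptor itself, gave 1.02 ± 0.28 on the log2 scale (adjusted p 0.0943, and 0.0364 with the block), and IRAK1, a partner kinase, gave 0.96 ± 0.29 (adjusted p 0.117, and 0.0581 with the block). The block called 2 of this list higher and 0 lower, against 4.58% and 6.52% of all genes.

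Of 22 genes for cytokine processing and release, 17 were tested, 1 was called higher, 0 lower and 16 were not called, where 0.861% of all tested genes were called higher and 0.394% lower. Their median log2 fold change was 0.51. NLRP3, CTSS and GSDMC were kept for testing through their TPA libraries, so their tests, and any count of calls that holds them, are descriptions. GSDMC reached the count limit in 2 DMSO libraries besides its 3 TPA libraries. PYCARD reached the count limit in 2 TPA libraries and 1 DMSO library. The median thus includes genes that had to be high with TPA. An unadjusted p under 0.05 was found for 7, against 22.1% of all genes, and DESeq2 called 5 higher and 0 lower, against 7.8% and 4.19% of all genes. The called gene was NLRP3, the sensor of the inflammasome that activates caspase-1, with 22.2, 34.4 and 36.1 CPM in TPA libraries 1, 2 and 3, against 1.05, 0.305 and 0.196 CPM in DMSO libraries 1, 2 and 3. Its groups did not come near each other, and the log2 fold change was 5.89 ± 0.63 with an adjusted p of 0.0250 in edgeR (6.92 without DMSO library 1). It was lost without TPA library 3, DMSO library 2 or DMSO library 3, with adjusted p of 0.0559, 0.234 and 0.160 in edgeR. NLRP1, an inflammasome sensor of epithelial cells, gave a log2 value of 1.13 ± 0.24 (adjusted p 0.0651, and 0.0153 with the block). CTSS, the protease cathepsin S, which can process IL-36γ, had 3.12 ± 0.65 (adjusted p 0.0651, and 0.0228 with the block) on 52 counts in all TPA libraries and 6 counts in all DMSO libraries, and 4.06 without DMSO library 1. With the block, 5 genes of this list were called higher and 1 lower, against 4.58% and 6.52% of all genes. NLRP3, CTSS and GSDMC are among the 5, so that count is a description. Without both libraries numbered 1, the log2 fold change was 8.45 for IL1R2, -2.17 for IL1RAP, 2.21 for IRAK2, 1.36 for MYD88, 1.37 for IRAK1, 7.26 for NLRP3, 1.38 for NLRP1 and 4.26 for CTSS, all of them called in edgeR. That fit called 6 receptors higher and 1 lower, 5 adaptors and kinases higher and 5 lower, and 11 processing genes higher and 5 lower, while over all genes it called 32.2% higher and 33.3% lower.

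The genes whose log2 CPM tracked each called member most closely over the 6 libraries were taken from 12026 genes, as a description. Those of IL1B were CPAMD8, MLKL and ZP4, with Pearson r of 0.99874, 0.99872 and 0.99827. IL36G had MLKL, ZP4 and IL13RA2 (0.99957, 0.99803 and 0.99801), so that MLKL and ZP4 were among the 3 nearest to both agonists. IL1RN had ZNF707, MAX and TAF1C (0.99972, 0.99963 and 0.9982), and IL36RN had RAB17, MROH1 and SEMA6C (0.99854, 0.99603 and 0.99594). The 6 points share the group difference and the offset of the libraries numbered 1.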

How the data were processed

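The authors deposited 1 table of raw read counts per gene for 6 libraries. Per the submitters' processing notes, the tools were HISAT2 2.1.0 and HTSeq 0.12.4 with hg38 (GRCh38); what annotation release, strand setting and read layout were used is not given in the sources used here. The control columns were assigned to the DMSO labels by their number, 0 columns lay outside the labels, and 0 rows named no gene. Counts were fitted with edgeR 4.0.16 (R 4.3.3; TMM factors, filterByExpr, glmQLFit and glmQLFTest, group as the only term) on the whole table, with Benjamini-Hochberg adjustment and a threshold of 0.05. A standard error is the estimate over the root of its F statistic. CPM were computed over TMM-scaled library sizes, and limits of detection are 3 counts; intervals cover counting error only. Coordinates and exon lengths came from GENCODE 29, promoters from RefSeq (GRCh38.p14).

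Alternatives were other scalings, no or a stricter filter, DESeq2 1.42.0, limma-voom (limma 3.58.1), a GC correction, the library number as a block, and libraries left out. Only the block fits and the values within library numbers treated libraries as paired by number; the reported fit and the permutation test did not. The pairing was taken from deviations from group means, which correlated at 0.646, 0.438 and 0.598 between same-numbered libraries over 14063 genes. This comes from the data, not the design, and numbers 2 and 3 are not told apart, since TPA 2 with DMSO 3 gave 0.595 and TPA 3 with DMSO 2 gave 0.487. Named genes were all 9 members, each called gene of the 3 pathway lists and the 3 genes of lowest adjusted p in each. The fit was tested on simulated data. The members and lists were chosen with earlier results of these data known. Promoter windows of 250 bases were searched on both strands.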

Additional observations from a re-analysis of the deposited data

How the results depend on the processing

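Of the 9 genes, 4 were called higher as reported, and 4 to 5 under every alternative that kept all libraries; leaving out libraries gave 0 to 6 higher and 0 to 1 lower, the 1 being IL18. The replicate block called 5 members (IL1A added) and changed no other member's call. IL18 alone reversed, at 0.18 under the replicate block with GC correction and 0.23 under the GC correction without a block; the cause was not tested. Over all genes, 274 were called as reported (188 higher, 86 lower). That count was 631 without a filter, 2617 with DESeq2, 2423 with the replicate block, 4193 with block and GC correction, 1390 with the GC correction without a block, and 0 to 14691 with libraries left out. Library size as the only scaling gave 126 higher and 219 lower and put the median over all genes at -0.36 log2, against -0.11 as reported; the called members stayed called. The IL1B to IL1RN difference was -1.88 to -1.48 and the IL1A to IL1RN difference -2.77 to -1.83 with libraries left out. Depth limits IL33, IL36B and IL36G, which had 0 to 9 counts in each DMSO library.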

Other observations

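Caspase-1, which cuts the precursors of IL-1β and IL-18, was named here after its values were seen. CASP1 had 0.326, 1.98 and 2.19 CPM in TPA libraries 1, 2 and 3, against 1.42, 8.27 and 6.71 CPM in DMSO libraries 1, 2 and 3. The groups overlapped, since DMSO library 1 was below TPA libraries 2 and 3, while within each number the TPA library was the lower. The log2 fold change was -1.86 ± 0.80 with an adjusted p of 0.226 in edgeR, and -1.90 with an adjusted p of 0.00509 with the library number as a block. The other 2 relatives of the chromosome 2 cluster were barely counted. IL36A had 0, 3 and 0 counts with TPA and 1, 0 and 0 counts with DMSO, and IL1F10 had 2, 6 and 2 counts with TPA and 1, 1 and 2 counts with DMSO.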
